A study of Mus musculus with 20 samples.

Results

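The genes described here are 37 transcripts of mature, myelin-forming oligodendrocytes, measured by RNA-seq in whole mouse hippocampus. They were taken by name from a fixed list, among 57126 gene identifiers in the count files, and were sorted by role into 22 structural, 7 metabolic and 8 signalling genes. The list and the roles were chosen with earlier results of these data known. All 37 passed the filter on low counts, which kept 18648 genes. The 20 mice were male C57BL/6 animals that had been adrenalectomized (ADX) at about 2.5 months of age, which removes the body's own corticosterone, and both genotypes and both treatments shared that surgery. Wild-type mice carried the normal glucocorticoid receptor gene Nr3c1, and homozygous GRA knockin mice carried an Nr3c1 exon 2 with the start codons of the 7 shorter receptor forms mutated, so that GRA, the full-length form, was the one left. The change is in the germline and is not limited to a cell type. 2 weeks after surgery each mouse received an intraperitoneal injection of phosphate-buffered saline (PBS) or of 1 mg/kg of dexamethasone (Dex), a synthetic glucocorticoid, and the hippocampus was taken 6 h later, from 5 mice in each of the 4 groups. The comparisons ask what 6 h of Dex did to these transcripts, and whether the receptor's shorter forms made a difference to it.

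Oligodendrocytes wrap axons in myelin, a stack of membrane that is held together by basic and tetraspan proteins and is rich in galactolipids. Compact myelin is the tightly packed part, while the inner tongue, the loops beside the node of Ranvier and the outermost layer keep cytoplasm or carry adhesion proteins. Mature cells also run enzymes for myelin lipids and for N-acetylaspartate, handle iron and acid, and carry receptors for lysophospholipids. Glucocorticoids act through the receptor as a DNA-binding transcription factor, and oligodendrocytes express that receptor.

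Levels are in CPM, a gene's read pairs relative to the read pairs of its library in the 18648 genes kept by the filter, with edgeR's TMM library scaling. Differences are log2 fold changes with standard error (SE) from edgeR's quasi-likelihood test. The summed levels of cell type and tissue lists, and the levels of Folr1, Kcnj13, Clic6, Pmp2, Aldh1l1 and Cx3cr1, are CPM relative to all genes and without that scaling. TMM factors ran from 0.9808 (GRA knockin Dex replicate 4) to 1.029 (wild-type PBS replicate 3). A gene was called when the Benjamini-Hochberg adjusted p over all 18648 genes was below 0.05. Library totals ran from 11493014 to 48267708 read pairs in genes. Transcripts of 2 other tissues stood out in a few libraries: 15 summed liver genes were at 261 and 147 CPM in wild-type PBS replicates 1 and 2 against at most 58.3 CPM elsewhere, and the choroid plexus gene Ttr reached 1632 CPM (wild-type PBS replicate 4) and 1273 CPM (GRA knockin Dex replicate 2) against at most 534 CPM elsewhere. Wild-type Dex replicate 3 was the lowest of its group for 31 of the 37 genes, and GRA knockin PBS replicate 3 was the highest of its group for 30 of them. Nr3c1 was at 118, 118, 171, 139 and 131 CPM in the wild-type PBS libraries, 88.6, 92.6, 107, 98.3 and 107 CPM in wild-type Dex, 148, 179.9, 197, 142 and 148 CPM in GRA knockin PBS, and 116, 117, 114, 96.1 and 115 CPM in GRA knockin Dex. These summed gene counts do not read the mutated start codons, so they do not check the genotype labels.

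In the wild-type PBS group the 37 transcripts spanned a 359.8-fold range of level per kilobase of exon. Mbp, which encodes myelin basic protein, the protein that seals the cytoplasmic faces of compact myelin, was highest at 302 ± 14.9 CPM per kb (SD, n = 5). Cnp, a marker enzyme of non-compact myelin, followed at 131 ± 9.24 CPM per kb, and Trf, encoding the iron carrier transferrin, at 102 ± 6.38 CPM per kb. Enpp2 (98.4 ± 70.4 CPM per kb) could not be separated from Trf or from the carbonic anhydrase gene Car2 (93.6 ± 5.46 CPM per kb) beyond their spread. Among the transcription factors Sox10 was at 15.5 ± 1.67 CPM per kb, Myrf at 11 ± 0.829 CPM per kb and Nkx6-2 at 4.87 ± 0.595 CPM per kb. The lowest were Ninj2 (1.85 ± 0.414 CPM per kb), Carns1 (1.32 ± 0.178 CPM per kb) and Klk6 (0.839 ± 0.159 CPM per kb). Levels per kb divide by all exon bases, although 7 of the 37 genes share some with another gene. The largest shares were in Pllp (50.4%) and Carns1 (33.5% and 30%), and the effect on their levels was not tested.

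Many oligodendrocyte transcripts were lower 6 h after Dex, while Mbp and most other transcripts of compact myelin were not called. In wild-type mice 16 of the 37 genes fell and 1 rose (edgeR, adjusted p below 0.05), where 3.94% of all tested genes fell and 5.27% rose (9.21% called in all). The GRA knockin mice had 17 lower and 2 higher, where 4.71% of all genes fell and 5.28% rose (10% called in all). Averaged over both genotypes, 20 fell and 4 rose, where 8.41% of all genes fell and 9.79% rose (18.2% called in all). The median log2 fold change of the 37 genes was -0.24 in wild-type, -0.30 in GRA knockin and -0.32 for the mean response, against a median of -0.001, 0.002 and -0.000 over all genes. In bulk tissue, fewer oligodendrocytes and less RNA per oligodendrocyte cannot be told apart.

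The same 15 genes fell in both genotypes: Opalin, Ninj2, Aspa, Ugt8a, Pllp, Tmem88b, Ppp1r14a, Car2, Enpp6, Tmem125, Fa2h, Gpr37, Sox10, Lpar1 and Ermn. Trf passed the threshold in wild-type mice, Carns1 and Cnp in GRA knockin mice, and Mog and Plekhh1 in the mean response alone. The genes that rose in the mean response were Hapln2, Mobp, Anln and Nfasc, none of which was called in both genotypes taken singly. No call was made in any of the 3 tests for 13 genes: Mbp, Cldn11, Mal, Tspan2, Mag, Cntn2, Gsn, Bcas1, Enpp2, S1pr5, Klk6, Myrf and Nkx6-2. For 15 genes in wild-type and 14 in GRA knockin mice every Dex library was below every PBS library of that genotype, where 3.68% and 4.03% of all genes showed such a separation downward. No member showed one upward, as 4.54% and 4.65% of all genes did. By role, the mean response had 10 lower and 4 higher of 22 structural genes (median log2 fold change -0.17), 7 lower and none higher of 7 metabolic genes (median -0.51), and 3 lower and none higher of 8 signalling genes (median -0.36). Roles were assigned by hand with earlier results known, and the enzyme genes Cnp and Enpp2 were placed outside the metabolic group. The split describes this sorting and does not test the roles. The count of genes that rose moved most with single libraries: in wild-type mice it was 4 without wild-type Dex replicate 3, 2 without wild-type PBS replicate 1 and 0 without wild-type Dex replicate 5. In GRA knockin mice it was 1 without any of GRA knockin PBS replicates 1, 2 and 5 or GRA knockin Dex replicates 1, 2 and 3. Calls of Trf, Tmem125, Ermn and Nfasc in wild-type mice, of Cnp, Ermn, Enpp6, Carns1, Hapln2 and Anln in GRA knockin mice, and of Mog and Plekhh1 in the mean response were each lost on leaving out some single libraries and under at least 1 other alternative (edgeR or limma-voom adjusted p = 0.0502 to 0.153 under the latter).

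**Figure D1:**
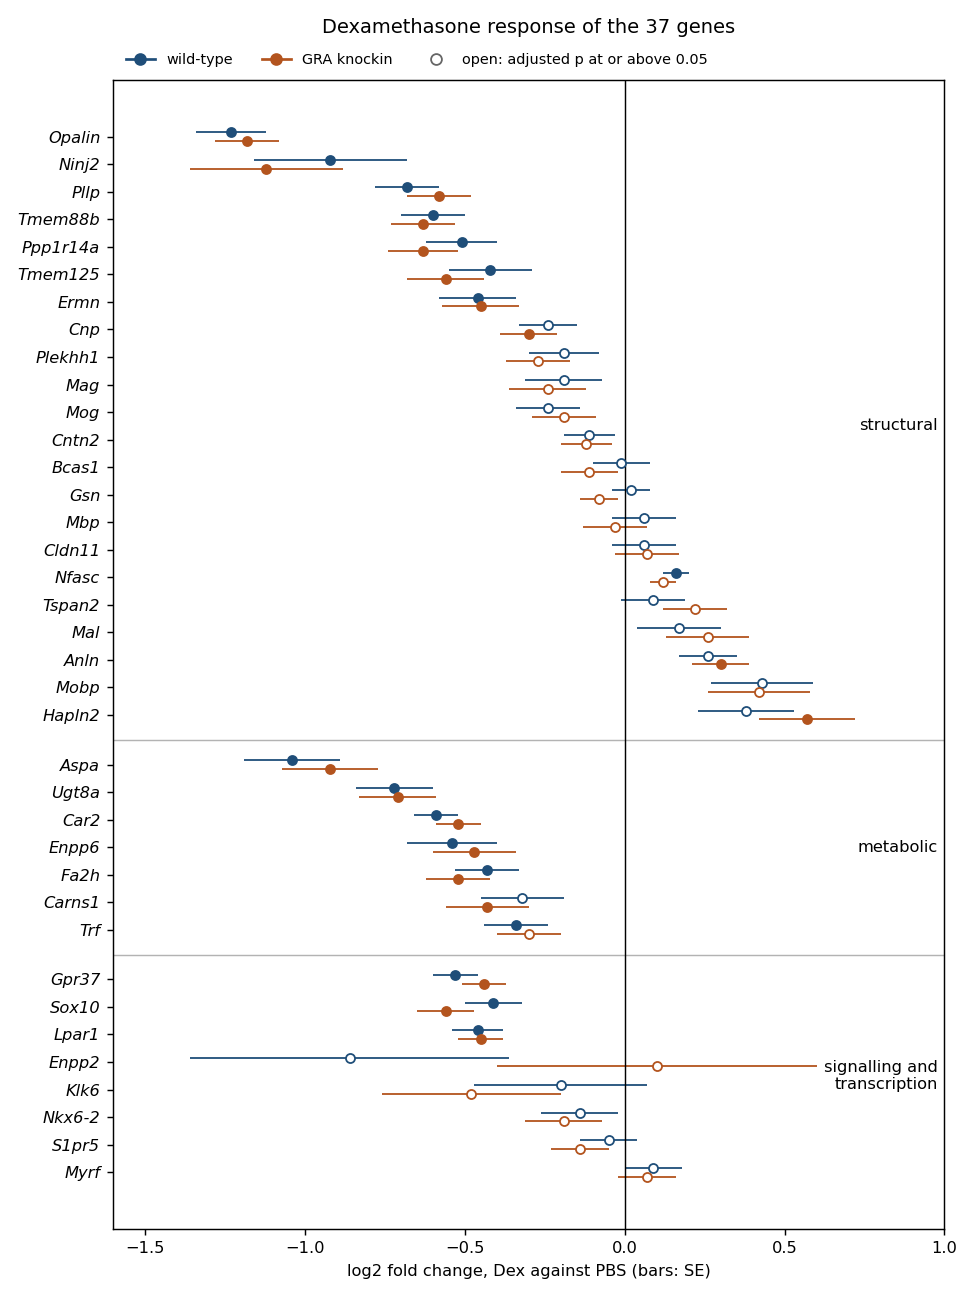
Log2 fold change of each of the 37 genes, Dex against PBS, in wild-type (blue) and GRA knockin (orange) mice, with bars of 1 SE and open circles where the adjusted p was 0.05 or more. Opalin, Ninj2 and Aspa lie farthest to the left in both genotypes (Opalin at -1.23 and -1.18), every metabolic gene lies left of 0, and Mbp, Cldn11 and Myrf lie close to 0.

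Promoters of 28 of the 37 genes were found in a RefSeq table (GRCm38.p6), 37 start sites in all, and the 250 bases before each start were searched on both strands. The palindrome core of a glucocorticoid receptor site (GNACA and TGTNC with 3 bases between) was in none of the 37, and in 0.387% of 32851 promoters. The single receptor arm AGAACA was in 2, those of Klk6 and Tspan2, against 16.1% of all promoters, and an inverted repeat glucocorticoid element (CTCC and GGAGA with no, 1 or 2 bases between) was in none, and in 454 of 32851 promoters. SOX letters (ACAATG or ACAAAG), the kind of site that Sox10 binds, were in 13 promoters of 11 genes, against 25.2% of all. MYRF letters (CTGGCAC or CTGGTAC), the kind that the myelin regulator Myrf binds, were in 7 promoters of 6 genes (Cnp, Hapln2, Lpar1, Mag, Mog and S1pr5), against 5.93% of all. These are matches of letters and not measured binding, and the single arm can overlap the palindrome. Printed here are promoters of 4 genes that fell (Opalin, Aspa, Tmem88b and Ermn) and 2 that rose (Mobp and Hapln2), chosen after the matches were known to show both. Each is 5′ to 3′ on the gene's own strand, ends at the base before the start site, and has SOX and MYRF letters on either strand in capitals.
Opalin (GRCm38.p6, chr19:41077114-41077363, minus strand): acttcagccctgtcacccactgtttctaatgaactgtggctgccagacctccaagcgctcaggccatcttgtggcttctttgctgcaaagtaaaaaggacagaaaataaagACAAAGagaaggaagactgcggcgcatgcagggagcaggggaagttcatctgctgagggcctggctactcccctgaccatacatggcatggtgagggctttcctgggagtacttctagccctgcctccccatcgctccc
Aspa (GRCm38.p6, chr11:73324638-73324887, minus strand): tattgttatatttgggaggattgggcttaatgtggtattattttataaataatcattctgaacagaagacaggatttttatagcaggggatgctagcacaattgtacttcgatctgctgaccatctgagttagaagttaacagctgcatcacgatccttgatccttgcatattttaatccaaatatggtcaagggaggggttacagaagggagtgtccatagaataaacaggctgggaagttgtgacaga
Tmem88b (GRCm38.p6, chr4:155785875-155786124, minus strand): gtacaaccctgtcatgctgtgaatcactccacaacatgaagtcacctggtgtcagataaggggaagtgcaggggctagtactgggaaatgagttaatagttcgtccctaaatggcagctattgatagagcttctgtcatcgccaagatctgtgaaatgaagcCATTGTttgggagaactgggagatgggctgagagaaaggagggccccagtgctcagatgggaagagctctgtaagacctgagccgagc
Ermn (GRCm38.p6, chr2:58052865-58053114, minus strand): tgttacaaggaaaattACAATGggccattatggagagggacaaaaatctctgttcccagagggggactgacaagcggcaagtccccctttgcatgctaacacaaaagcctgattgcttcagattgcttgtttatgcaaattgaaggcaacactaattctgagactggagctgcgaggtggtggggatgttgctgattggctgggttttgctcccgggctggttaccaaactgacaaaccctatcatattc
Mobp (GRCm38.p6, chr9:120149492-120149741, plus strand): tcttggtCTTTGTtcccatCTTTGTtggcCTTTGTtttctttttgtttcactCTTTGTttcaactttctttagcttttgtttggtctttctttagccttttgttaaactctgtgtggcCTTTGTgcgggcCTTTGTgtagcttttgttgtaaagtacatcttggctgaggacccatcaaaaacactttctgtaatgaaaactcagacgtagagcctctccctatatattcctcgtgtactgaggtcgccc
Hapln2 (GRCm38.p6, chr3:88027512-88027761, minus strand): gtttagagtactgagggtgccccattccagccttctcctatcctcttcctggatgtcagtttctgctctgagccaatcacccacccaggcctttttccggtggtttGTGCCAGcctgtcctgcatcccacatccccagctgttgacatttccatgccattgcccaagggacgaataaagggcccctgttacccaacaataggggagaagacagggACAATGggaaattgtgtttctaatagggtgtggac
Opalin, Tmem88b and Ermn each held 1 SOX match, at 139 to 134, 88 to 83 and 234 to 229 bases before the start. Mobp held 6, all as CTTTGT, the reverse complement of ACAAAG, from 243 to 115 bases before the start. Hapln2 held a MYRF match on the other strand (GTGCCAG, 144 to 138 bases before the start) and a SOX match 35 to 30 bases before it. Aspa held no match to any motif searched. SOX letters were present in printed genes of both directions, which were picked with the matches known. The rates of matches by direction were not compared.

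In compact myelin 1 of 6 genes fell and 1 rose in the mean response. Mbp was at 2328, 2359, 2524, 2430.3 and 2622 CPM in wild-type PBS and at 2760.1, 2816, 1905, 2532 and 2779 CPM in wild-type Dex. GRA knockin values were 2539, 2330.1, 3109, 2704 and 2399 CPM with PBS and 2797, 2679, 2519.7, 2436 and 2364 CPM with Dex. The groups overlapped, and 1 wild-type Dex library (replicate 3) lay below all the others. The log2 fold change was 0.06 (SE 0.10, edgeR adjusted p = 0.808) for wild-type mice and -0.03 (SE 0.10, adjusted p = 0.907) for the knockin. Cldn11, the tight junction protein between myelin wraps, differed by 0.06 (SE 0.10) and 0.07 (SE 0.10), with means of 110.4 ± 5.65 and 116 ± 15.7 CPM (SD, n = 5) in wild-type PBS and Dex. Mal and Tspan2, both tetraspan proteins of the myelin membrane, differed by 0.22 (SE 0.09, edgeR adjusted p = 0.121) and 0.16 (SE 0.07, adjusted p = 0.142) in the mean response. Neither passed the threshold, although Mal did without GRA knockin PBS replicate 4 (0.27, adjusted p = 0.0239) and Tspan2 without wild-type Dex replicate 3 (0.20, adjusted p = 0.0233).

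Mobp, a basic protein that resembles Mbp in its place in compact myelin, rose in the mean response by 0.43 (SE 0.11, edgeR adjusted p = 0.0112). It was at 222, 216, 228, 207 and 219 CPM in wild-type PBS and stood at 329, 321, 208, 308 and 309 CPM in wild-type Dex, so 4 of 5 Dex libraries were above all PBS libraries and replicate 3 was not. The knockin libraries read 213, 209.6, 282, 319 and 192 CPM with PBS and 313, 319.9, 293, 433 and 267 CPM with Dex. The difference within each genotype missed the threshold (0.43, adjusted p = 0.11, and 0.42, adjusted p = 0.115), and in wild-type mice it passed without Dex replicate 3 (0.54, adjusted p = 0.0272), in GRA knockin mice without PBS replicate 4 (0.54, adjusted p = 0.0324). Pllp, encoding plasmolipin, a tetraspan protein of compact myelin, was the one gene of the 6 in this role to fall. It was at 8.5, 9.91, 9.91, 10.2 and 11 CPM in wild-type PBS and at 6.71, 6.2, 5.5, 5.99 and 6.49 CPM in wild-type Dex. With the knockin allele the values were 8.94, 10, 12.6, 9.53 and 8.53 CPM with PBS and 7.57, 6, 6.23, 5.89 and 7.39 CPM with Dex. No Dex library reached a PBS library of its genotype, and the log2 fold changes were -0.68 (SE 0.10, adjusted p = 3.20e-05) and -0.58 (SE 0.10, adjusted p = 1.71e-04). Of the Pllp exon bases 50.4% overlap the antisense gene Gm45767, and without strand their reads cannot be told apart.

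The 3 genes for other membrane proteins of the oligodendrocyte all fell in both genotypes. Opalin (chromosome 19, 41050912 to 41065552, minus strand, mm39), a sialylated protein of the oligodendrocyte surface and myelin, fell the most of the 37 and has its promoter printed above. It was at 28.3, 23.1, 29, 28.2 and 27.1 CPM in wild-type PBS and at 11.3, 11.5, 9.36, 13.3 and 13.2 CPM in wild-type Dex. In GRA knockin mice it was at 28.7, 24.8, 32.9, 32.4 and 23.1 CPM with PBS and at 14.2, 13.8, 11.4, 11.4 and 11.8 CPM with Dex. The highest Dex library of either genotype lay far below the lowest PBS library. Opalin fell by 57.2% in wild-type (log2 fold change -1.23, SE 0.11, edgeR adjusted p = 6.04e-08) and fell by 55.9% in GRA knockin mice (-1.18, SE 0.10, adjusted p = 4.83e-08).

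Tmem88b, a membrane protein enriched in oligodendrocytes, was at 72.4, 65.8, 72.3, 72.7 and 69.3 CPM in wild-type PBS and at 45.3, 47.3, 38, 52.6 and 50.8 CPM in wild-type Dex. Among the knockin mice, PBS gave 74.1, 67.2, 94.5, 69.8 and 67.8 CPM and Dex 55.4, 47.5, 45.5, 41 and 51.5 CPM. The groups did not overlap in either genotype, and PBS replicate 3 of the knockin stood above its group. The log2 fold changes were -0.60 (SE 0.10, edgeR adjusted p = 5.04e-04) and -0.63 (SE 0.10, adjusted p = 2.29e-04). Tmem125 was at 7.69, 6.75, 8.26, 6.85 and 6.39 CPM in wild-type PBS and at 5.4, 5.62, 4.92, 6.37 and 4.88 CPM in wild-type Dex. With the knockin allele it was at 7.8, 6.19, 11.1, 7.69 and 6.62 CPM with PBS and at 6.04, 5.34, 4.42, 5.12 and 5.61 CPM with Dex. Here the groups came close without overlapping. Its log2 fold change was -0.42 (SE 0.13, edgeR adjusted p = 0.0352) in wild-type, which lost its call without any of wild-type PBS replicates 1 and 3 or Dex replicates 1, 2, 3 and 5 (adjusted p = 0.0544 to 0.114), and -0.56 (SE 0.12, adjusted p = 0.00252) in GRA knockin mice.

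**Figure D2:**
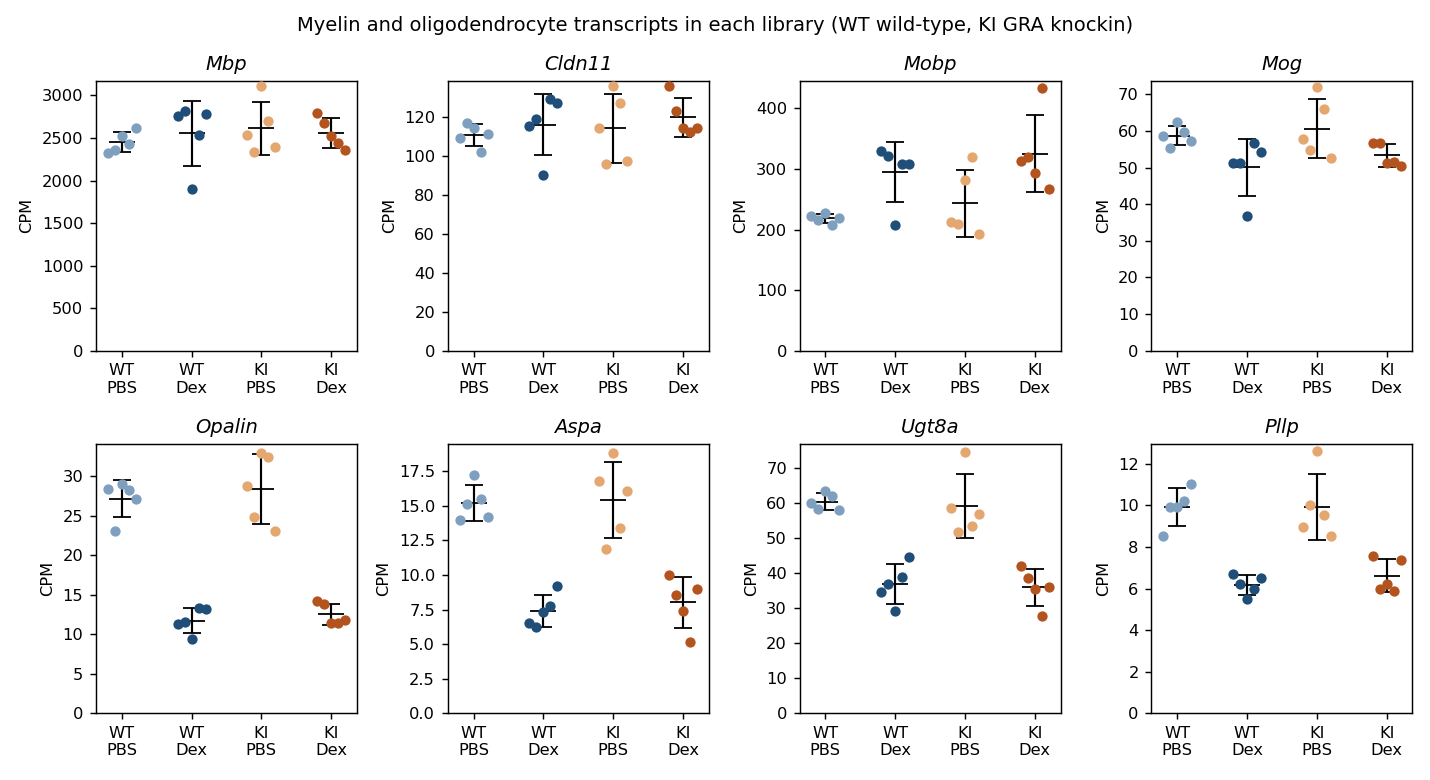
CPM of 8 transcripts in each of the 20 libraries (points; WT wild-type, KI GRA knockin), with the mean and SD of each group of 5 (bars); all axes start at 0. Opalin, Aspa, Ugt8a and Pllp separate Dex from PBS in both genotypes, whereas Mbp, Cldn11 and Mog overlap and Mobp lies higher with Dex in most libraries.

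Genes of non-compact myelin and of the contact between axon and myelin went both ways, with 3 lower and 2 higher of 7 in the mean response. Mog, encoding a glycoprotein of the outermost myelin layer, was at 58.6, 55.5, 62.5, 59.8 and 57.3 CPM in wild-type PBS and at 51.3, 51.2, 36.8, 56.7 and 54.4 CPM in wild-type Dex. GRA knockin values were 57.8, 54.9, 71.9, 66 and 52.5 CPM with PBS and 56.6, 56.7, 51.2, 51.6 and 50.5 CPM with Dex. The ranges overlapped in both genotypes and the change was small. It was called in the mean response (-0.21, SE 0.07, edgeR adjusted p = 0.0355), not in wild-type (-0.24, adjusted p = 0.158) or GRA knockin mice (-0.19, adjusted p = 0.284), and the call was lost without any of wild-type PBS replicates 1, 3 and 4, GRA knockin PBS replicates 3 and 4 or GRA knockin Dex replicates 3, 4 and 5 (adjusted p = 0.0503 to 0.0647). Mag, the myelin-associated glycoprotein that faces the axon, had a similar value (-0.22, SE 0.08) that missed the threshold (adjusted p = 0.0839). Cnp ran from 279.8 to 339 CPM in wild-type PBS and from 203 to 282 CPM in wild-type Dex, and from 292 to 392 and from 250.1 to 286 CPM in GRA knockin mice. Its fall was called in the mean response (-0.27, SE 0.06, edgeR adjusted p = 0.00494) and in GRA knockin mice (-0.30, SE 0.09, adjusted p = 0.0398), where it lost its call without any of PBS replicates 1, 3 and 4 or Dex replicates 2 to 5 (adjusted p = 0.0521 to 0.117).

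Ninj2, an adhesion protein of the ninjurin family, had the second largest fall of the 37 in the mean response, at a low level. It was at 1.85, 1.43, 1.56, 2.36 and 1.47 CPM in wild-type PBS and at 1, 0.511, 0.888, 1.08 and 0.935 CPM in wild-type Dex. The knockin libraries read 1.89, 1.57, 2.02, 0.841 and 1.74 CPM with PBS and 0.964, 0.703, 0.623, 0.456 and 0.837 CPM with Dex. The wild-type groups did not overlap, and in GRA knockin mice PBS replicate 4 lay within the Dex range. The log2 fold changes were -0.92 (SE 0.24, edgeR adjusted p = 0.0117) and -1.12 (SE 0.24, adjusted p = 0.00192). Hapln2, a link protein of the matrix at the node of Ranvier, rose in the mean response by 0.47 (SE 0.11, adjusted p = 0.00308) and in GRA knockin mice by 0.57 (SE 0.15, adjusted p = 0.0166). In wild-type mice it was at 11.2, 12.8, 14.1, 13.3 and 13.4 CPM with PBS and at 20.1, 19.6, 12.7, 14.3 and 17.9 CPM with Dex, where the ranges overlapped and the difference was not called (0.38, adjusted p = 0.144). It was at 11.6, 11.7, 17.6, 12.6 and 9.49 CPM with PBS and 20.7, 20.5, 16.6, 15 and 21 CPM with Dex in the knockin, where PBS replicate 3 overlapped the Dex range, and the call there was lost without PBS replicate 1 (0.53, adjusted p = 0.0507). Nfasc, whose glial form anchors the paranodal loop and whose other forms are neuronal, rose slightly in wild-type mice (0.16, SE 0.04, edgeR adjusted p = 0.0134). That call was lost without Dex replicate 5 (0.13, adjusted p = 0.0602), and the mean response was 0.14 (SE 0.03, adjusted p = 0.00108). Cntn2, an adhesion protein beside the paranode, was not called (-0.12, SE 0.05, adjusted p = 0.162).

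Genes of the oligodendrocyte cytoskeleton also divided. Ppp1r14a, a phosphatase inhibitor, was at 8.88, 9.1, 10.5, 9.67 and 9.48 CPM in wild-type PBS and at 8.1, 6.52, 5.19, 7.37 and 6.49 CPM in wild-type Dex. In GRA knockin mice it was at 9.26, 8.59, 11.9, 11.7 and 9.67 CPM with PBS and at 7.28, 5.25, 6.49, 6.84 and 6.99 CPM with Dex. All Dex libraries were below all PBS libraries of their genotype. The log2 fold changes were -0.51 (SE 0.11, edgeR adjusted p = 0.0026) and -0.63 (SE 0.11, adjusted p = 1.82e-04). Ermn, encoding ermin, an actin-binding protein of the late oligodendrocyte, fell by 27.3% in wild-type (-0.46, SE 0.12, edgeR adjusted p = 0.0191) and fell by 26.6% in GRA knockin mice (-0.45, SE 0.12, adjusted p = 0.0196). Its groups did not overlap, and the wild-type call was lost without wild-type PBS replicate 3 or Dex replicate 1 or 3 (adjusted p = 0.0517 to 0.0568), the GRA knockin call without PBS replicate 3 (-0.38, adjusted p = 0.0649). Plekhh1 fell in the mean response (-0.23, SE 0.07, edgeR adjusted p = 0.0382), and that call was lost without any of wild-type PBS replicates 1, 3 and 4, wild-type Dex replicates 1, 3 and 4, GRA knockin PBS replicates 1, 3 and 4 or GRA knockin Dex replicates 3, 4 and 5 (adjusted p = 0.0507 to 0.0716). Anln, encoding anillin, a septin-binding scaffold of the myelin sheath, rose in the mean response by 0.28 (SE 0.07, edgeR adjusted p = 0.00463) and in GRA knockin mice by 0.30 (SE 0.09, adjusted p = 0.0456). The knockin call was lost without any of PBS replicates 2, 4 and 5 or Dex replicates 1, 2 and 3 (adjusted p = 0.0804 to 0.126), and in wild-type mice (0.26, adjusted p = 0.107) Anln passed without PBS replicate 1 (0.32, adjusted p = 0.0388) or Dex replicate 3 (0.33, adjusted p = 0.0191). Gsn, the actin-severing protein gelsolin, and Bcas1, a marker of early myelinating cells, were not called (mean responses -0.03, SE 0.05, and -0.06, SE 0.06).

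Every gene placed in the metabolic group fell in the mean response. Ugt8a (chromosome 3, 125658920 to 125732268, minus strand, mm39) encodes the enzyme that makes galactosylceramide, the main galactolipid of myelin. It was at 60, 58.3, 63.5, 61.9 and 57.9 CPM in wild-type PBS and at 34.6, 36.9, 29.1, 38.9 and 44.5 CPM in wild-type Dex. Among the knockin mice, PBS gave 58.6, 51.7, 74.5, 53.4 and 56.8 CPM and Dex 41.9, 38.7, 35.4, 27.7 and 36 CPM. No Dex library reached the PBS range. Ugt8a fell by 39.4% in wild-type (-0.72, SE 0.12, edgeR adjusted p = 4.65e-04) and fell by 38.9% with the knockin allele (-0.71, SE 0.12, adjusted p = 4.34e-04). Fa2h, the hydroxylase that supplies 2-hydroxy fatty acids to the same lipids, fell from 31.9 ± 1.64 to 24 ± 3.98 CPM (SD, n = 5) in wild-type and from 31.9 ± 3.76 to 22.2 ± 1.94 CPM in GRA knockin mice (-0.43, SE 0.10, and -0.52, SE 0.10).

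Aspa (chromosome 11, 73195818 to 73220422, minus strand, mm39) encodes aspartoacylase, which splits N-acetylaspartate and so releases acetate. It was at 14, 15.1, 17.2, 15.5 and 14.2 CPM in wild-type PBS and at 6.56, 6.26, 7.34, 7.76 and 9.2 CPM in wild-type Dex. GRA knockin values were 16.8, 11.9, 18.8, 13.4 and 16.1 CPM with PBS and 9.98, 8.57, 7.38, 5.19 and 9.01 CPM with Dex. The groups were well apart in both genotypes. The log2 fold changes were -1.04 (SE 0.15, edgeR adjusted p = 8.02e-05) and -0.92 (SE 0.15, adjusted p = 1.87e-04).

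Car2, a cytosolic carbonic anhydrase found in oligodendrocytes, was at 182, 159.7, 172, 162 and 161 CPM in wild-type PBS and at 111, 112, 105, 112 and 117 CPM in wild-type Dex. The knockin libraries read 168, 151, 181, 151 and 153 CPM with PBS and 118, 116, 119, 87.9 and 118 CPM with Dex. The Dex libraries lay in a narrow band well below PBS, except GRA knockin Dex replicate 4, which was lower still. The log2 fold changes were -0.59 (SE 0.07, edgeR adjusted p = 5.11e-06) and -0.52 (SE 0.07, adjusted p = 1.79e-05). Enpp6, a choline phosphodiesterase that is highest in newly forming oligodendrocytes, was at 13.6, 10.2, 15.1, 15 and 12.2 CPM in wild-type PBS and at 9.53, 9.27, 7, 10.1 and 9.61 CPM in wild-type Dex. With the knockin allele it was at 15.1, 11.8, 13.9, 10.9 and 16.6 CPM with PBS and at 9.9, 12.2, 9.77, 8.52 and 8.27 CPM with Dex. The wild-type groups did not overlap and the knockin groups did. The log2 fold changes were -0.54 (SE 0.14, edgeR adjusted p = 0.0114) and -0.47 (SE 0.13, adjusted p = 0.0229), the second of which lost its call without any of PBS replicates 1, 3 and 5 or Dex replicates 4 and 5 (adjusted p = 0.0559 to 0.0726).

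Trf was at 295, 279.6, 295, 275 and 253 CPM in wild-type PBS and at 223, 244, 166, 249 and 225 CPM in wild-type Dex. In GRA knockin mice it was at 276, 252, 339.5, 303 and 254 CPM with PBS and at 252, 256, 208, 228 and 213 CPM with Dex. The wild-type groups did not overlap, although Dex replicate 2 came close to PBS replicate 5. The log2 fold change was -0.34 (SE 0.10, edgeR adjusted p = 0.0482) in wild-type, -0.30 (SE 0.10, adjusted p = 0.0782) in GRA knockin mice and -0.32 (SE 0.07, adjusted p = 0.00412) in the mean response. Liver makes transferrin too, and without the 2 libraries with liver transcripts the wild-type value was -0.32 (SE 0.13, adjusted p = 0.153) and the mean response -0.31 (adjusted p = 0.015). Trf in those 2 libraries (295 and 279.6 CPM) was about as high as in PBS replicates 3 and 4 (295 and 275 CPM) and above replicate 5 (253 CPM). In the 2 libraries with the most Ttr, Trf was at 275 CPM (wild-type PBS replicate 4) and at 256 CPM (GRA knockin Dex replicate 2, the highest of its group). The part of liver or choroid plexus transcripts in the Trf level was not tested. The wild-type call, close to the threshold, was lost without any of PBS replicates 1 to 4 or Dex replicates 1, 3 and 5 (adjusted p = 0.0738 to 0.11). It was also lost without the 2 libraries with the most Ttr (0.0813), with the replicate block (0.075), by limma-voom (0.0519), with no filter on low counts (0.0962) and in the compared libraries alone (0.0704). Carns1, which makes carnosine and homocarnosine, fell in the mean response (-0.37, SE 0.09, edgeR adjusted p = 0.00427) and in GRA knockin mice (-0.43, SE 0.13, adjusted p = 0.0314). The knockin call was lost without any of PBS replicates 1, 3 and 4 or Dex replicates 2, 3 and 5 (adjusted p = 0.0608 to 0.0816), and its exon bases are shared with other genes, 33.5% with the opposite-strand gene Gm17552 and 30% with the same-strand gene AC109138.8.

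Of the signalling genes, the receptors Lpar1 and Gpr37 fell and the others split by gene. Lpar1, a receptor for lysophosphatidic acid, ran from 36.5 to 39.8 CPM in wild-type PBS and from 24.9 to 31.8 CPM in wild-type Dex, and from 32.6 to 43.1 and from 24.1 to 30.4 CPM in GRA knockin mice. Gpr37, a receptor that restrains oligodendrocyte differentiation, ran from 82.7 to 91.9 and from 52.8 to 67 CPM, and from 78.4 to 96.8 and from 56.3 to 71.3 CPM. Neither gene's groups overlapped. The mean responses were -0.46 (SE 0.05, edgeR adjusted p = 4.38e-07) and -0.48 (SE 0.05, adjusted p = 4.67e-08). S1pr5, the sphingosine 1-phosphate receptor of mature oligodendrocytes, was not called (-0.09, SE 0.06, adjusted p = 0.378), nor was Klk6, a secreted protease, at about 1 CPM (-0.34, SE 0.20, adjusted p = 0.267).

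The lineage regulators parted. Sox10 (chromosome 15, 79039108 to 79049440, minus strand, mm39), required for oligodendrocyte identity and myelin gene expression, was at 36, 40.8, 46.6, 46.3 and 45.8 CPM in wild-type PBS and at 31.9, 33.5, 31.6, 28.8 and 36 CPM in wild-type Dex. Among the knockin mice, PBS gave 43.4, 42.9, 53.3, 45.3 and 38.2 CPM and Dex 34.6, 27.1, 30.3, 26.9 and 32.6 CPM. Only wild-type PBS replicate 1 and Dex replicate 5 touched. Sox10 fell by 24.8% in wild-type (-0.41, SE 0.09, edgeR adjusted p = 0.00443) and fell by 32.1% in GRA knockin mice (-0.56, SE 0.09, adjusted p = 1.78e-04). Myrf, the factor that starts the myelin programme and that Sox10 works with, was at 59.1, 59.1, 70.1, 60 and 63.9 CPM in wild-type PBS and at 69, 73.6, 51.4, 71 and 70.8 CPM in wild-type Dex. GRA knockin values were 64.2, 56.8, 75.5, 61.5 and 61.3 CPM with PBS and 68.4, 71.4, 65.9, 64.6 and 63.6 CPM with Dex. The groups overlapped, with wild-type Dex replicate 3 far below its group. Myrf was not called in the mean response (0.08, SE 0.06, edgeR adjusted p = 0.441), and without wild-type Dex replicate 3 it passed as higher (0.12, adjusted p = 0.0489). Nkx6-2, a homeobox factor of myelinating cells, was not called (-0.17, SE 0.08, adjusted p = 0.177).

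Enpp2, encoding autotaxin, the secreted enzyme that makes lysophosphatidic acid, varied widely between libraries. It was at 238, 164, 247, 745 and 249 CPM in wild-type PBS and at 152, 269, 135, 185 and 161 CPM in wild-type Dex. The knockin libraries read 256, 159, 461, 177 and 189.8 CPM with PBS and 164, 685, 183, 165 and 136 CPM with Dex. The highest libraries, wild-type PBS replicate 4 and GRA knockin Dex replicate 2, were also the highest of all 20 for the choroid plexus genes Ttr (1632 and 1273 CPM), Folr1 (9.81 and 8.35 CPM), Kcnj13 (13 and 7.24 CPM) and Clic6 (28.2 and 36.5 CPM). Choroid plexus epithelium makes autotaxin as well, and the 10 summed choroid plexus genes ran from 39.7 to 1847 CPM over all libraries. The log2 fold change of Enpp2 was -0.86 (SE 0.50, edgeR adjusted p = 0.382) for wild-type mice and 0.10 (SE 0.50, adjusted p = 0.953) for the knockin. Without those 2 libraries it was -0.32 (SE 0.29, adjusted p = 0.639) and -0.62 (SE 0.29, adjusted p = 0.283).

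**Figure D3:**
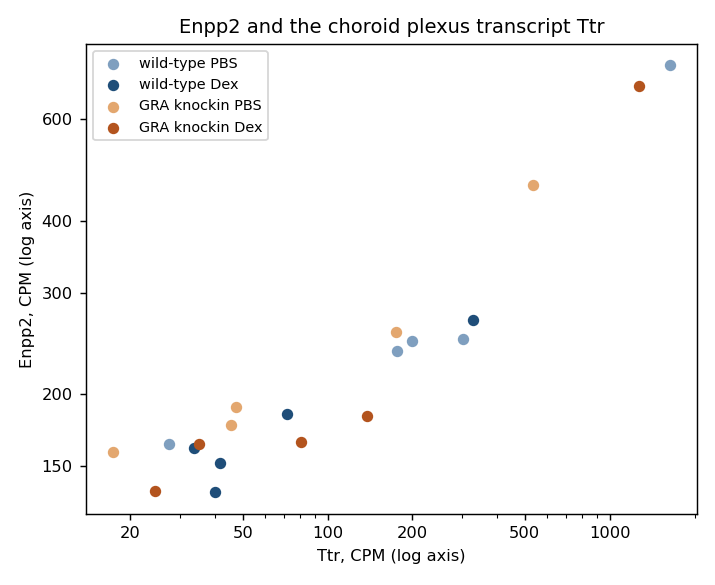
CPM of Enpp2 against CPM of the choroid plexus gene Ttr in the 20 libraries, both axes logarithmic, coloured by group. The libraries with the most Ttr, wild-type PBS replicate 4 (1632 CPM) and GRA knockin Dex replicate 2 (1273 CPM), have the most Enpp2 (745 and 685 CPM).

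The amount of myelin RNA varied between libraries within a group, and the falls were also read against it. The summed level of Mbp, Mobp and Cnp was 2849, 2855, 3091, 2944 and 3155 CPM in wild-type PBS and 3365, 3415, 2316, 3123 and 3354 CPM in wild-type Dex. In GRA knockin mice it was 3066, 2834, 3783, 3372 and 2882 CPM with PBS and 3396, 3270.2, 3063, 3140.2 and 2886 CPM with Dex. Dex did not separate from PBS by this sum. For every 1000 read pairs of Mbp there were 9.78 to 12.2 of Opalin in wild-type PBS and 4.09 to 5.25 in wild-type Dex, and 9.62 to 12 and 4.54 to 5.16 in GRA knockin mice. Aspa went from 5.43 to 6.82 down to 2.22 to 3.85, and from 4.95 to 6.72 down to 2.13 to 3.81. Relative to Mbp, then, both stayed apart by treatment in each genotype, wild-type Dex replicate 3 included. Sox10 per 1000 of Mbp was 15.5 to 19 in wild-type PBS and 11.4 to 16.6 in wild-type Dex, overlapping through Dex replicate 3 (16.6), and 15.9 to 18.4 and 10.1 to 13.8 in GRA knockin mice, which did not overlap. Mog per 1000 of Mbp was 21.8 to 25.2 in wild-type PBS and 18.2 to 22.4 in wild-type Dex, which overlapped, and 21.9 to 24.4 and 20.2 to 21.4 in GRA knockin mice, which did not. The sum of Mbp, Mobp and Cnp is made of members of the same gene list, and Mobp was called higher and Cnp lower in the mean response. It is therefore not a measure of myelin independent of Dex, and a fit that includes it cannot separate the amount of myelin from the response. With that summed level as a covariate, of the other 34 genes 20 fell and 2 rose in wild-type mice, against 4.09% and 5.31% of all genes (edgeR, adjusted p below 0.05). GRA knockin mice then had 20 lower and 4 higher, against 4.76% and 5.41% of all genes, and the mean response 21 lower and 4 higher, against 8.63% and 9.97%. Newly called as lower in both genotypes were Mog (-0.29, adjusted p = 5.24e-05, and -0.17, adjusted p = 0.0109), Mag and Plekhh1, and Mag and Cntn2 passed in the mean response (-0.24, adjusted p = 3.30e-06, and -0.13, adjusted p = 0.00245). Cntn2 was also called lower in wild-type mice and Trf in GRA knockin mice. Newly called as higher were Tspan2 in the mean response (0.14, adjusted p = 0.0265) and in GRA knockin mice (0.24, adjusted p = 0.0132), Hapln2 in wild-type mice (0.32, adjusted p = 0.0384) and Nfasc in GRA knockin mice (0.12, adjusted p = 0.0133).

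**Figure D4:**
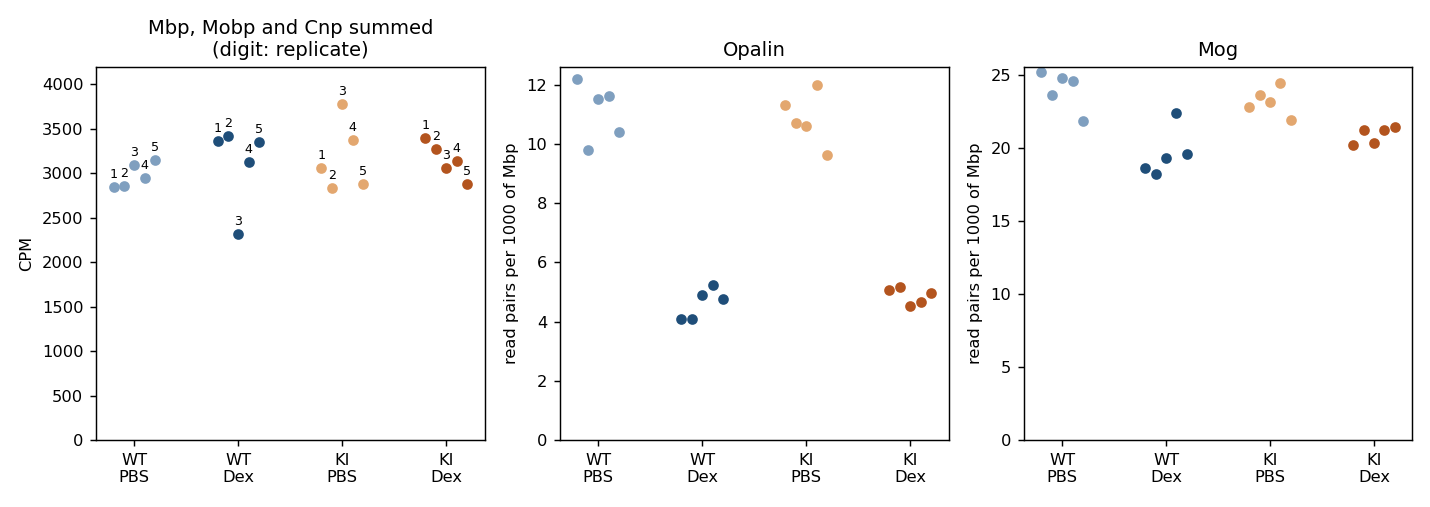
Summed CPM of Mbp, Mobp and Cnp in each library (left, replicate number above each point), and read pairs of Opalin (middle) and Mog (right) for every 1000 read pairs of Mbp; WT is wild-type and KI GRA knockin. Wild-type Dex replicate 3 has the lowest sum (2316 CPM) and GRA knockin PBS replicate 3 the highest (3783 CPM), while Opalin relative to Mbp is at or below 5.25 in all Dex libraries and at or above 9.62 in all PBS libraries.

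No difference between genotypes was detected in these genes. None of the 37 was called between GRA knockin and wild-type mice with PBS, with Dex, or in the difference of the Dex responses, and edgeR called 0% of all 18648 genes in each of these comparisons. At an unadjusted edgeR threshold of 0.05, S1pr5 alone passed with PBS (0.22, SE 0.09), Gsn alone passed with Dex (-0.14, SE 0.06) and no member passed in the difference of responses, where 3.61%, 4.44% and 2.83% of all genes did. DESeq2's Wald test and limma-voom also called 0 genes in each, and a fit to the compared libraries alone called 1 gene, no member, between the Dex groups. For Opalin the difference of responses was 0.04 (SE 0.15), for Aspa 0.12 (SE 0.21), for Ugt8a 0.01 (SE 0.17) and for Sox10 -0.15 (SE 0.13). These SE values limit the difference that could have been seen, and a p above the threshold does not show that the responses were equal. Nr3c1 itself fell with Dex in both genotypes (-0.46, SE 0.11, edgeR adjusted p = 0.0112, and -0.55, SE 0.11, adjusted p = 0.00227).

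Other genes of the lineage set these values in context, where 8.41% of all genes fell and 9.79% rose in the mean response. In lists of about 10 genes, counts of 1 or 2 say little beside those shares. Of 34 further genes of mature oligodendrocytes, 17 fell and 3 rose in the mean response, with a median log2 fold change of -0.18. Gjb1, a connexin of oligodendrocyte gap junctions, fell by 50.9% (-1.03, SE 0.10, edgeR adjusted p = 3.46e-08), and Nipal4 (-0.76, SE 0.11) and Evi2a (-0.56, SE 0.08) fell as well. Apod, a lipocalin, rose the most of that list (0.52, SE 0.08, adjusted p = 1.63e-04). Of 10 genes of committed, newly differentiating cells none fell and 4 rose, Neu4 (0.43, SE 0.06), Itpr2 (0.43, SE 0.04), Gpr17 (0.19, SE 0.05) and Tnr (0.17, SE 0.03). The 10 precursor genes were split: 3 fell and 4 rose, 2 of the latter being on both lists. Their log2 mean responses ran from -0.26 to 0.43 with a median of 0.04, and 5 of the 10 were below 0. Those that rose included Vcan at 0.37 (SE 0.05) and Pdgfra, the growth factor receptor of precursors, at 0.21 (SE 0.03). Of 13 other lineage transcription factors 3 fell, Nkx2-2 (-0.52, SE 0.11), Sox5 (-0.31, SE 0.06) and Sox6 (-0.30, SE 0.04), and 4 rose, including Olig1 (0.23, SE 0.05). On the axonal side of the node and paranode none of 11 genes fell and 2 rose, the potassium channel Kcna1 (0.25, SE 0.04) and the scaffold Ank3 (0.15, SE 0.03).

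Markers of other cells were also read, again beside 8.41% of all genes lower and 9.79% higher in the mean response. Their lists were chosen with earlier results known, and several held genes called with Dex. They are therefore not a control on tissue content independent of Dex. None of 10 neuronal markers was called in any Dex comparison, and their summed level ran from 8430.1 to 8801 CPM in wild-type PBS, 8498 to 8882 in wild-type Dex, 8194 to 9214 in GRA knockin PBS and 8483 to 8782 in GRA knockin Dex. Of 9 astrocyte genes 1 fell and 2 rose in the mean response, with sums of 6860.3 to 7267, 6851 to 7077, 6887 to 7444 and 6939 to 7679 CPM in the same order. Of 9 microglial genes 4 fell and 3 rose, with sums of 433 to 503, 395 to 442, 431 to 479 and 393 to 414 CPM. Of 7 endothelial genes 3 fell and 1 rose, with sums of 271 to 296, 242 to 287, 247 to 293 and 244 to 273 CPM. Similar sums did not mean that single genes were steady. Log2 mean responses ran from -0.05 to 0.07 over the neuronal and from -0.41 to 1.40 over the astrocyte genes. They ran from -0.77 to 0.21 over the microglial and from -0.53 to 0.58 over the endothelial genes. In wild-type mice Aldh1l1 (astrocyte) ran from 49.6 to 55.6 CPM with PBS and from 65.4 to 81.7 CPM with Dex. Cx3cr1 (microglia) ran from 64.5 to 74.2 and from 39.2 to 48.3 CPM. Of 8 Schwann cell genes, the cells that myelinate peripheral nerve, 5 passed the filter and 1 fell in each Dex comparison. This was Egr2 in wild-type mice (-1.01, SE 0.32, edgeR adjusted p = 0.0454), and Drp2 in GRA knockin mice (-0.13, SE 0.04, adjusted p = 0.0294) and in the mean response (-0.10, SE 0.03, adjusted p = 0.0113). Their sums were 103 to 118, 96.5 to 106, 107 to 116 and 94.5 to 102 CPM, to which Drp2 and Pmp22 gave 82 and 21.3 CPM in wild-type PBS, while Pmp2 reached no more than 0.067 CPM in any library. No choroid plexus, liver or dividing cell gene was called. All microglial and all Schwann cell sums of GRA knockin mice with Dex were below those with PBS, and the part of such cells in the oligodendrocyte falls was not tested.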

How the data were processed

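Poly(A) RNA of whole hippocampus was sequenced from 20 mice (TruSeq libraries, 75-base paired-end reads), 5 in each of 4 groups, per the labels' protocols. Each file holds unnormalized counts of read pairs for every gene, which the authors made with featureCounts 2.0.6 on the GENCODE M34 basic annotation without a strand option and without multi-mapping pairs, per the file headers. The submitters' processing notes also name STAR 2.5.1, mm39, Subread 1.5.1 and DESeq2 1.38.3. The sources used here do not give the settings of the alignment. Identifiers were matched to symbols through a names table (51884 of 57126); coordinates of genes are those of the files.

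The tests ran in edgeR 4.0.16 (R 4.3.3): filterByExpr (minimum count 10, minimum total 15), TMM scaling, and a robust quasi-likelihood fit of all 20 libraries with 1 term per group. The fit left 16 residual degrees of freedom, and the biological coefficient of variation was 7.08%. Benjamini-Hochberg adjustment covered all 18648 genes. Dex was compared with PBS in each genotype and as the mean of both, and genotypes were compared within each treatment and by the difference of the Dex responses. The scripts were tested on simulated data, and 40 pairs of libraries within groups were checked for duplicates, of which none was found. Depth limits the low genes most, such as Klk6 and Ninj2.

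The members, their roles and the gene lists were chosen with earlier results of these data known. All 37 may be named. Values of every library are given for Mbp, Mog, Sox10, Myrf, Enpp2, Trf and the 10 called genes with the largest mean response, and Mobp, Hapln2 and Nr3c1 were added after their values were seen. Of the other lists, up to 4 called genes per comparison are named. Alternatives were DESeq2 1.42.0 (size factors, and its Wald test), limma-voom 3.58.1 with sample weights, no filter, a filter of 50 counts in 5 libraries, the compared libraries alone, a replicate block, a covariate for the summed level of Mbp, Mobp and Cnp, and leaving out each library, the libraries above 100 CPM of summed liver genes, or those above 1000 CPM of Ttr. Leaving out wild-type Dex replicate 3 together with GRA knockin PBS replicate 3 was added after seeing the data.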

Additional observations from a re-analysis of the deposited data

Results flagged for a closer look

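Within a group of 5, a library was picked out where its gap to the nearest other library was over 0.71 of the group's range (Dixon's test), which chance does in about 1 group in 20. Of 148 groups (37 genes in 4 groups) 11 were picked out, where chance alone gives about 7.4. The 37 genes were measured in the same libraries, so the 148 groups are not independent and the 2 numbers do not make a test. Wild-type Dex replicate 3 accounted for 6: it was far below its group for Mobp (208 CPM), Cnp (203 CPM), Mog (36.8 CPM), Mag (106 CPM), Enpp6 (7 CPM) and Myrf (51.4 CPM). GRA knockin PBS replicate 3 stood above its group for Tmem88b (94.5 CPM) and Cntn2 (152 CPM). GRA knockin Dex replicate 4 stood below its group for the carbonic anhydrase gene Car2 (87.9 CPM). Enpp2 stood above its group in wild-type PBS replicate 4 (745 CPM) and in GRA knockin Dex replicate 2 (685 CPM), the libraries with the most Ttr.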

How the results depend on the processing

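The counts of falling genes kept within 1.5 times of 16, 17 and 20 (wild-type, GRA knockin and mean response) under every alternative run: 13 to 16, 13 to 17 and 18 to 20 on leaving out 1 library, and 13 to 20, 14 to 20 and 18 to 21 otherwise. Of the called genes 13 of 17, 13 of 19 and 22 of 24 kept their call throughout. The replicate numbers give no sign of pairing (same-numbered libraries correlated at -0.11 to 0.25, and at most 2 of 5 best with their own number). A fit with the replicate block called 15 lower and 1 higher, 15 lower and 2 higher, and 18 lower and 4 higher. The genes that rose were fewer and moved more. In wild-type mice their count of 1 became 5 without both libraries of extreme myelin level, 2 with the myelin covariate and 0 to 4 on leaving out 1 library. In GRA knockin mice their count of 2 became 1 with no filter on low counts, 1 in the compared libraries alone, 0 without the Ttr-high libraries, 4 without both libraries of extreme myelin level, 4 with the myelin covariate and 1 to 3 on leaving out 1 library. No member was called between genotypes under any alternative. Signs turned for values near 0 that were never called. Without both libraries of extreme myelin level these were Mbp in GRA knockin mice (0.04), Gsn (0.02) and Bcas1 (0.00) in the mean response, and Bcas1 (0.07) and S1pr5 (0.03) in wild-type mice. Without the liver-high libraries they were Mbp in the mean response (-0.01) and Gsn in wild-type mice (-0.04, and -0.00 with the myelin covariate), and without the Ttr-high libraries Bcas1 in wild-type mice (0.00). Enpp2 in GRA knockin mice was -0.62 without the Ttr-high libraries, -0.09 with the replicate block and -0.17 by limma-voom. On leaving out 1 library, Mbp ran from -0.07 to 0.04 in GRA knockin mice and from -0.01 to 0.06 in the mean response, Gsn from -0.02 to 0.06 in wild-type and from -0.05 to 0.00 in the mean response, Bcas1 from -0.06 to 0.07 and S1pr5 from -0.10 to 0.03 in wild-type, and Enpp2 from -0.62 to 0.44 in GRA knockin mice. Egr2, a Schwann cell gene, ran from -0.32 to 0.05 in GRA knockin mice. The cause of these changes was not tested. No mean response was computed from the compared libraries alone. Depth limits Klk6, Ninj2 and Carns1, the lowest of the 37.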
